A study of Mus musculus with 8 samples.

Results

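The genes described here make and support the machinery that copies DNA in S phase, together with the enzymes that supply its nucleotides. They were taken from a list of 50 gene symbols chosen by function, and 48 of them had a probe set assigned to that gene alone, of 13243 such genes on the array. Of these 48, 47 passed the filter on low signal, among 8371 genes that did. Tyms (thymidylate synthase, which makes thymidylate) fell below the filter, and Gins2 and Chaf1a had no probe set of their own. The samples were C3H10T1/2 cells, a mouse mesenchymal cell line of embryonic origin that can be driven towards bone, cartilage, fat or muscle fates in culture. BMP7 is a secreted ligand of the bone morphogenetic protein family, which signals through paired serine/threonine kinase receptors. All cells were grown to confluence and then received either vehicle or BMP7 for 3 days. The dose was 3.3 nM (the unit stands only in the title of the series), and each group had 4 samples, called here Vehicle 1 to 4 and BMP7 1 to 4. No sample label gives a passage, a clone or a separate culture, so the p-values below rest on the spread among these 8 arrays, part or all of which could be technical. The number of arrays limits the precision.

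A replication origin is first bound by the origin recognition complex, which with Cdc6 and Cdt1 loads the MCM helicase ring during G1. At the start of S phase Cdc45 and the GINS complex join the ring, DNA is unwound, RPA coats the single strands, and the polymerases extend primers with the help of the sliding clamp Pcna and its loader, replication factor C. Ribonucleotide reductase and thymidine kinase feed the deoxynucleotide pool, and many genes of this machinery are known targets of E2F transcription factors that are active when cells leave G1.

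RNA was hybridised to Affymetrix arrays, and the unit is the authors' MAS5 signal, a linear probe set intensity scaled to a common trimmed mean on each array. Vehicle 3 stood apart in RNA integrity: its ratio of 3' to 5' signal for the control transcript Actb was 6.55, against 1.17 to 1.40 on the other arrays, and for Gapdh 3.36 against 0.725 to 1.35. The hybridisation controls, foreign transcripts added before hybridisation, averaged 12.53 ± 0.55 (SD, n = 4) on the log2 scale in the vehicle group and 11.83 ± 0.11 (SD, n = 4) in the BMP7 group. Vehicle 3 was also the highest array for these controls, at 13.25, and the other vehicle arrays ran from 11.92 to 12.60. Across all tested genes the array means lay between 10.75 and 10.83 on the log2 scale in both groups. Most markers of other cell types were low: 7 of 7 epithelial and 6 of 7 endothelial markers fell below the filter, as did 5 of 9 macrophage and leukocyte markers including Ptprc. The other 4 macrophage and leukocyte markers passed it, with a mean of 9.40 on the log2 scale in the vehicle group and 9.38 in the BMP7 group. The 1 endothelial marker that passed had 8.63 and 8.76. All 11 mesenchymal markers passed the filter, and the label of a mesenchymal line holds in both groups.

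Of the 47 replication genes tested, 7 had higher signals after BMP7, in 4 of the 11 roles: nucleotide supply, the MCM helicase, the polymerases and the clamp loader. In limma's test on log2(signal + 16), with Benjamini-Hochberg adjustment over all 13576 tested probe sets, these 7 members rose at an adjusted p under 0.05 and 0 fell. That is 14.9% of the members, beside 1.59% of all tested genes called higher and 1.77% called lower. These were 133 and 148 genes, and with each array centred on its median 108 and 208, when 6 members were called higher. The 7 were Tk1, Mcm5, Mcm3, Pole2, Rrm1, Rfc5 and Rrm2. At an unadjusted p under 0.05, 31 members were higher and 0 lower, beside 908 and 865 of the 8371 genes. The estimated difference was above 0 for 45 of the 47 members. The median over members was 0.68 on the log2 scale, beside 0.00 over all tested genes. For 19 members every BMP7 array lay above every vehicle array (40.4%, beside 7.61% of all tested genes), and for 0 members every BMP7 array lay below (7.78% of all tested genes). Among the tested members, 4 (Orc1l, Cdc6, Pole and Uhrf1) had a vehicle mean below the filter and passed it only through the BMP7 arrays, so their direction was fixed by the filter. Of the other 43 members, 41 had estimates above 0, 18 did not overlap and 7 were called. The median of 0.68 and the 31 members at an unadjusted p under 0.05 still include the 4 genes whose direction was fixed. In bulk RNA, a larger share of cells in S phase and more transcript per cell cannot be told apart.

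**Figure D1:**
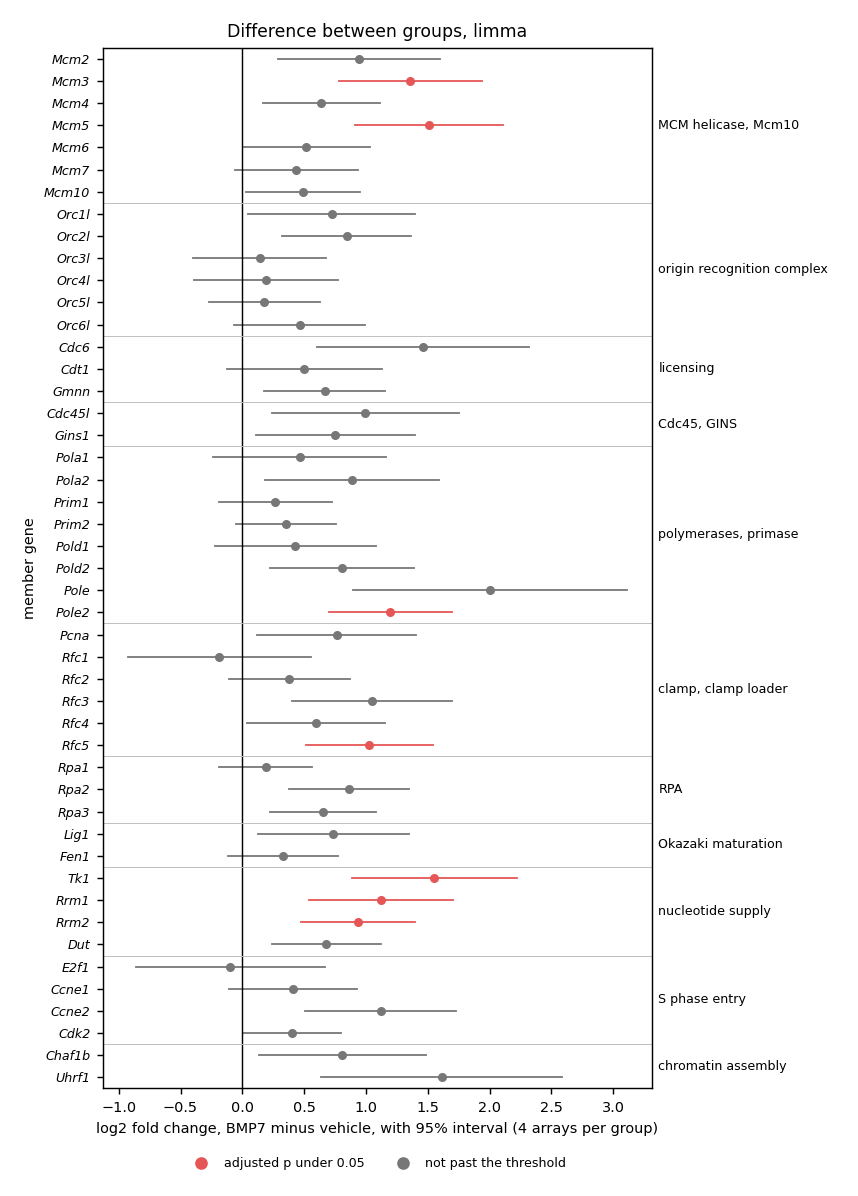
Log2 fold change of each of the 47 tested members (x axis, BMP7 minus vehicle, log2(signal + 16), 4 arrays per group), with genes on the y axis ordered by role; points are limma estimates and bars their 95% intervals. The 7 red points are the members past the adjusted threshold, and 45 of the 47 estimates lie right of 0. These 45 include the 4 genes that passed the filter only through the BMP7 arrays, whose direction was fixed.

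The mean log2(signal + 16) over the 47 members was 10.03, 10.35, 10.30 and 10.73 on Vehicle 1 to 4. On BMP7 1 to 4 it was 10.84, 11.02, 11.19 and 11.27. The lowest BMP7 array thus lay above the highest vehicle array, and the group means were 10.35 ± 0.29 and 11.08 ± 0.19 (SD, n = 4 each), a difference of 0.73. These means include the 4 members that passed the filter only through the BMP7 arrays, whose direction was fixed by the filter. Leaving out 1 array at a time gave differences from 0.62 (without Vehicle 1) to 0.85 (without Vehicle 4). Without Vehicle 3, the array with the raised 3' to 5' ratios, the difference was 0.71 and 9 members were called higher. The count of called members was far less even: it was 15 without Vehicle 4, 4 without Vehicle 2, 2 without BMP7 1 and 0 without Vehicle 1, BMP7 2, BMP7 3 or BMP7 4, where between 21 and 25 members had an unadjusted p under 0.05. With the mean of the hybridisation controls as a covariate, 0 members passed, 14 had an unadjusted p under 0.05 and the median log2 fold change was 0.62.

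The vehicle arrays differed among themselves in these genes. Vehicle 4 was the highest vehicle array for 26 members. For 31 members all vehicle arrays other than Vehicle 4 lay below the lowest BMP7 array, and 12 of these overlapped through Vehicle 4 alone. In all 28 members overlapped, so the rest of them did so through another vehicle array, with or without Vehicle 4. Vehicle 1 was the lowest of all 8 arrays for 23 members and Vehicle 3 for 15. Within the BMP7 group, BMP7 1 was the lowest array for 30 members and BMP7 4 the highest for 28. Vehicle 4 also had the lowest hybridisation controls of its group, at 11.92, and the highest mean over mitosis genes, at 11.09. The part of these differences in the members' values was not tested.

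**Figure D2:**
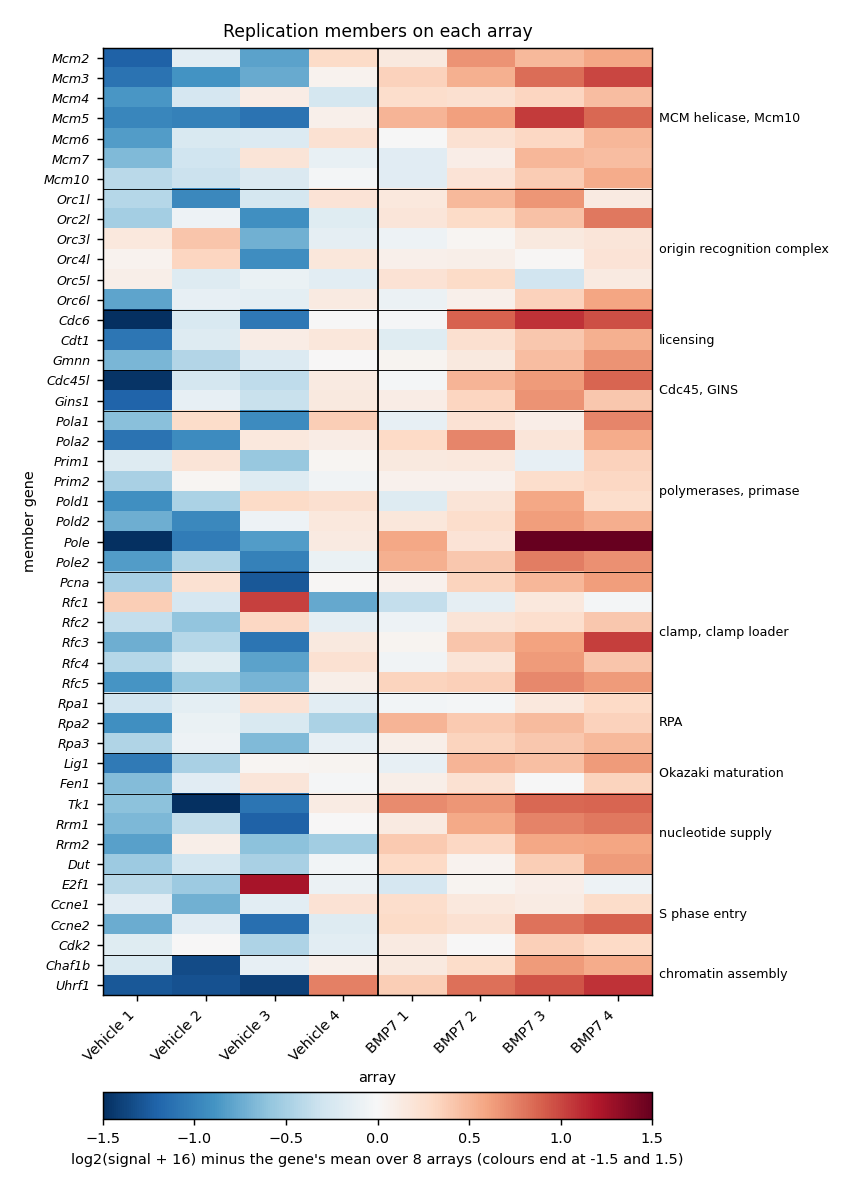
Each row is a tested member and each column an array; colour gives log2(signal + 16) minus that gene's mean over the 8 arrays, red above and blue below, with rows grouped by role. The Vehicle 1 column is the lowest of the 8 for 23 members, the Vehicle 4 column is paler, and Vehicle 3 holds the isolated high values of E2f1 and Rfc1.

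Promoter sequences were read from the RefSeq promoter table, build GRCm38.p6, which gives 300 bases per start site, 250 before and 50 after it. Of the 48 members with a probe set, 41 were in that table. The windows were searched on both strands for 4 motifs of the kind bound by E2F factors, TTTGGCGC, TTTCCCGC, TTTCGCGC and TTTGCCGC. At least 1 of these was present for 15 of 41 members (36.6%), beside 704 of 27025 genes in the table (2.60%). Among the called members 3 of 7 held a motif, and among the tested members that were not called 12 of 33 did, so the letters did not separate called from uncalled members. Below, the windows of the 4 called members with the largest rise and of the 2 members with estimates under 0 are printed. They stand where those genes are described, with motif letters in capitals. A match describes the sequence and is not evidence of a bound site. The absence of a match covers only the listed window, and start sites not in the table were not searched.

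Of the 4 nucleotide supply members tested, 3 were called higher, beside 1.59% of all tested genes, and their median difference was 1.03 on the log2 scale. In the list of other nucleotide supply genes 0 of 27 were called, and the roles are not ranked here. Tk1, thymidine kinase, salvages thymidine for DNA synthesis and is encoded on chromosome 11. Its signal was 1716.7, 910.3, 1231.3 and 2879.9 on Vehicle 1 to 4 and 4326.8, 4187.4, 4829.1 and 4859.2 on BMP7 1 to 4. All BMP7 arrays lay above all vehicle arrays, and the BMP7 values were close together while the vehicle values were widely spread. The log2 fold change was 1.55 ± 0.30 (SE, adjusted p = 0.0245), a 2.94-fold higher signal and the largest rise among the called members. Its promoter window, shown because of that rise, held none of the 4 motifs, which says only that these letters are not in it.
Tk1 promoter, chr11:117825965-117826264, minus strand: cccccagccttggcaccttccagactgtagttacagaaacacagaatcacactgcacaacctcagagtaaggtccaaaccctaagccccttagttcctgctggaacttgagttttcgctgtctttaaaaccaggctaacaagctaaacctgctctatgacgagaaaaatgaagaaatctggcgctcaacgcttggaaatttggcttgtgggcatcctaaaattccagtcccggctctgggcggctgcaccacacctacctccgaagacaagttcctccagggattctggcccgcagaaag

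Ribonucleotide reductase reduces ribonucleotides to deoxyribonucleotides, and both of its S phase subunits rose. Rrm1, the large catalytic subunit on chromosome 7, had signals of 2561.0, 3172.4, 1757.7 and 4101.7 on Vehicle 1 to 4 and 4491.9, 6085.2, 6889.5 and 7110.7 on BMP7 1 to 4. Its log2 fold change was 1.12 ± 0.26 (SE, adjusted p = 0.0467), and only Vehicle 4 came near the lowest BMP7 array. Rrm2, the small subunit on chromosome 12, had signals of 3286.5, 6142.1, 3757.0 and 4007.3 on Vehicle 1 to 4 and 7586.8, 7160.3, 8632.3 and 8701.3 on BMP7 1 to 4. Here Vehicle 2 was the high vehicle array, still below every BMP7 array, and the log2 fold change was 0.93 ± 0.21 (SE, adjusted p = 0.0400). This Rrm2 probe set is of a design that can share probes with other transcripts. The other Rrm2 probe sets gave 1.34 (adjusted p = 0.0261) and 2.01 (adjusted p = 0.0857), and the second Rrm1 probe set gave 1.49 (adjusted p = 0.0686), all higher after BMP7.

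Dut, the dUTPase that keeps uracil out of DNA, had a log2 fold change of 0.68 ± 0.20 (SE, adjusted p = 0.0893), with every BMP7 array (1628.4 to 2446.2) above every vehicle array (1066.2 to 1519.8). Its second probe set had 0.36 (adjusted p = 0.475), with overlap. Tyms was listed at 129.0, 123.3, 41.2 and 211.7 on Vehicle 1 to 4 and at 78.4, 218.9, 97.6 and 174.8 on BMP7 1 to 4, and was not tested. The groups overlapped, with Vehicle 3 the lowest array and BMP7 2 the highest. The calls in this role depended on single arrays. Tk1 and Rrm2 lost theirs when Vehicle 1 or a single BMP7 array was left out, with an adjusted p of up to 0.0911 and 0.142, and Rrm1 also when Vehicle 2 was, with up to 0.155.

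**Figure D3:**
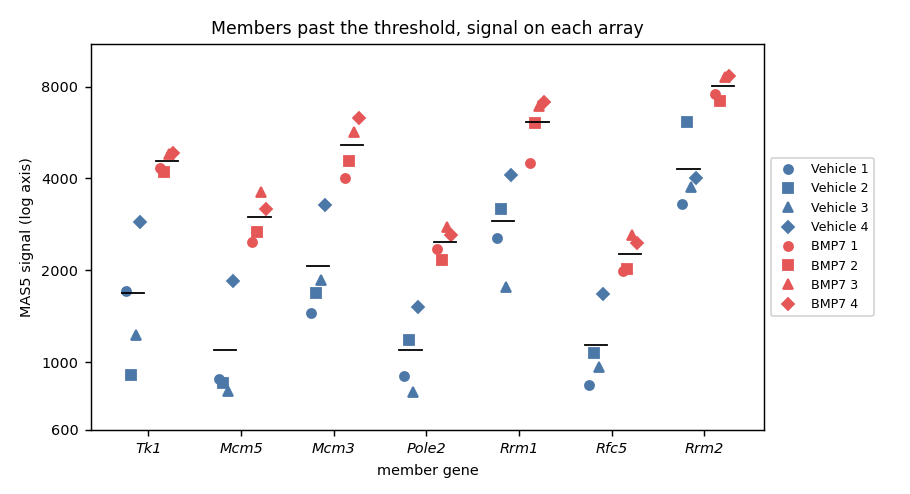
Signal (y axis, log scale) of the 7 called members on each array, blue for vehicle and red for BMP7, with marker shapes for the array number and black lines for group means. No blue point reaches the lowest red point of its gene, and Vehicle 4 is the highest blue point for every gene except Rrm2, where Vehicle 2 is, at 6142.1.

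The MCM genes encode the ring of 6 related subunits that unwinds DNA at the fork, and Mcm10 helps to start it. Of 7 tested genes in this role 2 rose, and all 7 estimates were above 0, the median being 0.64 on the log2 scale. Mcm5, on chromosome 8, had signals of 878.0, 854.5, 801.1 and 1845.2 on Vehicle 1 to 4 and 2483.5, 2674.7, 3614.3 and 3171.8 on BMP7 1 to 4. The other vehicle arrays were close together, Vehicle 4 stood well above them, and all BMP7 arrays were higher still. The log2 fold change was 1.51 ± 0.27 (SE, adjusted p = 0.0176), the lowest adjusted p of any member. Mcm3, on chromosome 1, had signals of 1453.9, 1684.4, 1860.9 and 3266.9 on Vehicle 1 to 4 and 4017.0, 4560.9, 5664.7 and 6327.1 on BMP7 1 to 4, with no overlap. Its log2 fold change was 1.36 ± 0.26 (SE, adjusted p = 0.0238). This Mcm3 probe set, like that of Rrm2, is of a design that can share probes with other transcripts.

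The Mcm5 and Mcm3 windows are shown as the promoters of the called helicase genes. In Mcm5, TTTCGCGC and the reverse complement of TTTGGCGC overlapped in 1 run. In Mcm3, the reverse complement of TTTCCCGC and a copy of TTTGGCGC lay apart near the end of the window, past the start site.
Mcm5 promoter, chr8:75109259-75109558, plus strand: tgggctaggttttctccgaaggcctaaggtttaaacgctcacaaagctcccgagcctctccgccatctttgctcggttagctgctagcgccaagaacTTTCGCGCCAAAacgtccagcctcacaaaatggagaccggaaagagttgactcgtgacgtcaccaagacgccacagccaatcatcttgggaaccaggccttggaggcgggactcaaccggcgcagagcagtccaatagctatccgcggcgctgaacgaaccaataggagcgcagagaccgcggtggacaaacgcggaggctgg
Mcm3 promoter, chr1:20820263-20820562, minus strand: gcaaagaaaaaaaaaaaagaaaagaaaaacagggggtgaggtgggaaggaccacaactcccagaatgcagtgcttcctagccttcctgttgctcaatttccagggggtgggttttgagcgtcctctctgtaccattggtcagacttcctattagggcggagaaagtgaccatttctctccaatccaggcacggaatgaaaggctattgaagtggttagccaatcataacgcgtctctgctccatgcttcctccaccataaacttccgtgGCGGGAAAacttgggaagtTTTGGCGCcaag

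The other MCM genes did not pass the threshold. Mcm2 had a log2 fold change of 0.94 ± 0.30 (SE, adjusted p = 0.108), and only Vehicle 4 (5313.6) overlapped the BMP7 range, which began at 4806.1. For Mcm4 the groups did not overlap, with vehicle arrays from 2252.3 to 4496.1 and BMP7 arrays from 4903.2 to 5717.7, at 0.64 ± 0.22 (SE, adjusted p = 0.124). Mcm6, Mcm10 and Mcm7 had estimates of 0.52, 0.49 and 0.44 with adjusted p from 0.210 to 0.287, and their groups overlapped. The probe sets used for Mcm2, Mcm4 and Mcm7 are also of designs that can share probes with other transcripts. Several of these estimates depended on the probe set. Mcm7 had 1.30 (adjusted p = 0.0534) and 0.59 (adjusted p = 0.108) on its other probe sets, and Mcm4 had 1.14 (adjusted p = 0.0549). Mcm2 had 1.16 and Mcm6 0.30 on theirs, with adjusted p of 0.0912 and 0.511. The subunits are therefore not ranked here, and the differences between them were not tested. Mcm3 had 3 other tested probe sets, with log2 fold changes of 1.49 (adjusted p = 0.0323), 2.37 (adjusted p = 0.0560) and 0.14 (adjusted p = 0.828), and so did not behave alike across its probe sets. Mcm5 lost its call without Vehicle 1, BMP7 2, BMP7 3 or BMP7 4 (highest adjusted p 0.0784), and Mcm3 without these or Vehicle 2 (highest 0.0942).

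The origin recognition complex marks origins, and its genes stand in the files under older symbols, Orc1l to Orc6l. None of the 6 passed the threshold, 2 had an unadjusted p under 0.05 and the median log2 fold change was 0.33. Orc2l had an estimate of 0.85 ± 0.24 (SE, adjusted p = 0.0782), with vehicle signals of 599.9 to 1089.3 below BMP7 signals of 1304.4 to 2005.2, and its other probe sets had 0.45 and 0.35. Orc1l, tested only because of its BMP7 arrays, had 0.72 ± 0.31 (SE, adjusted p = 0.205) and Orc6l at 0.47 ± 0.24 (SE, adjusted p = 0.285), both with overlap. Orc3l, Orc5l and Orc4l had estimates of 0.14, 0.18 and 0.19. Their 95% intervals ran from -0.40 at the lowest to 0.77 at the highest, so an increase and a decrease both lay within the error. Without Vehicle 3, Orc3l and Orc4l had estimates of -0.08 and -0.09, and their other tested probe sets were between -0.28 and -0.03.

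The licensing factors load the helicase, and geminin (Gmnn) binds Cdt1 to stop loading once S phase has begun. Cdc6 signals were 140.2, 392.5, 211.7 and 462.2 on Vehicle 1 to 4 and 456.9, 869.1, 1003.3 and 924.4 on BMP7 1 to 4. Cdc6 was tested only because of its BMP7 arrays. Vehicle 4 and BMP7 1 nearly coincided, and every other BMP7 array was above every vehicle array. The log2 fold change was 1.46 ± 0.39 (SE, adjusted p = 0.0686). Gmnn signals were 874.9, 1046.5, 1232.2 and 1424.5 on Vehicle 1 to 4 and 1464.3, 1581.4, 1966.4 and 2279.3 on BMP7 1 to 4, without overlap. Its log2 fold change was 0.67 ± 0.22 (SE, adjusted p = 0.119). Cdt1, which the files call Ris2, had an estimate of 0.50 ± 0.29 (SE, adjusted p = 0.326) and overlapping groups. Its other tested probe set had 1.34 ± 0.36 (SE, adjusted p = 0.0699), with only Vehicle 4 (1589.6) inside the BMP7 range of 1415.1 to 2419.0. Neither the loaders nor their inhibitor passed the threshold.

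Cdc45 and GINS turn the loaded ring into a working helicase. Cdc45l (Cdc45) had a log2 fold change of 0.995 ± 0.34 (SE, adjusted p = 0.129), with vehicle signals of 223.3 to 712.0 and BMP7 signals of 634.0 to 1204.6. Gins1, listed under an older clone name, had 0.75 ± 0.29 (SE, adjusted p = 0.170), with vehicle signals of 290.7 to 761.1 and BMP7 signals of 740.4 to 1103.2. In both genes Vehicle 1 was the lowest array and only Vehicle 4 reached into the BMP7 range.

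Polymerase alpha with primase lays down primers, polymerase epsilon extends the leading strand and polymerase delta the lagging strand. Of the 8 genes tested, Pole2 rose, all 8 estimates were above 0 and the median log2 fold change was 0.63. The 8 and the median include Pole, which was tested only because of its BMP7 arrays and had to be above 0. Pole2, a non-catalytic subunit of polymerase epsilon encoded on chromosome 12, had signals of 903.4, 1182.6, 796.2 and 1511.5 on Vehicle 1 to 4 and 2354.6, 2156.2, 2778.1 and 2616.1 on BMP7 1 to 4. The groups were well apart, and the log2 fold change was 1.20 ± 0.23 (SE, adjusted p = 0.0212). The call was lost when Vehicle 1 or a single BMP7 array was left out, with an adjusted p of up to 0.0900. Its window, shown as the only polymerase gene that rose, held 1 motif, the reverse complement of TTTGGCGC, just past the start site.
Pole2 promoter, chr12:69228141-69228440, minus strand: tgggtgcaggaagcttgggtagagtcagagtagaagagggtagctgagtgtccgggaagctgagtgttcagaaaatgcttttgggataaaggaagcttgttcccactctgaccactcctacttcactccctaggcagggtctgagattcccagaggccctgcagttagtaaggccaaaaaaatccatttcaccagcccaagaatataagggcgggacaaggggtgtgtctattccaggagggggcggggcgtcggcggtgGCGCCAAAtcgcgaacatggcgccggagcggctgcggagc

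Pole, the catalytic subunit of the same enzyme, had an estimate of 2.00 ± 0.50 (SE, adjusted p = 0.0562) and did not pass the threshold. It is 1 of the 4 genes that were tested only because of their BMP7 arrays, so its estimate had to be above 0. Its signals were low in the vehicle group, at 55.9, 150.3, 175.4 and 361.8 on Vehicle 1 to 4, and 495.9, 380.0, 1085.7 and 984.2 on BMP7 1 to 4. The groups did not overlap, and the standard error on the log2 scale was larger than that of Pole2. Pola2 (0.89, adjusted p = 0.142), Pold2 (0.81, adjusted p = 0.115) and Prim2 (0.35, adjusted p = 0.289) also had every BMP7 array above every vehicle array. Pola1, Pold1 and Prim1 had estimates of 0.46, 0.43 and 0.27 with overlapping groups and adjusted p from 0.418 to 0.472, and the second Pold1 probe set had 0.01.

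The sliding clamp Pcna tethers polymerases to DNA, and the clamp loader has a large subunit, Rfc1, and the small subunits Rfc2 to Rfc5. Rfc5, on chromosome 5, rose, with signals of 841.7, 1069.1, 961.3 and 1672.5 on Vehicle 1 to 4 and 1995.5, 2022.8, 2609.3 and 2451.3 on BMP7 1 to 4. The groups did not overlap, and the log2 fold change was 1.03 ± 0.23 (SE, adjusted p = 0.0415). It lost the call when Vehicle 1, Vehicle 2 or a single BMP7 array was left out, with an adjusted p of up to 0.146. Rfc3 had an estimate as large, 1.05 ± 0.30 (SE, adjusted p = 0.0783), with Vehicle 4 (1287.1) inside the BMP7 range of 1193.4 to 2394.3, and its second probe set had 0.74 (adjusted p = 0.165). Rfc4 (0.59) and Rfc2 (0.38) had adjusted p of 0.207 and 0.337.

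Pcna signals were 11276.0, 18574.9, 6575.8 and 16084.8 on Vehicle 1 to 4 and 16682.5, 20078.8, 22509.1 and 24475.1 on BMP7 1 to 4. Only Vehicle 2 overlapped the BMP7 range, and the log2 fold change was 0.76 ± 0.29 (SE, adjusted p = 0.163). Rfc1 was 1 of the 2 members with an estimate under 0, at -0.19 ± 0.34 (SE, adjusted p = 0.780). Its signals were 1750.7, 1133.5, 2782.0 and 789.2 on Vehicle 1 to 4 and 1053.6, 1231.3, 1514.3 and 1324.5 on BMP7 1 to 4. Vehicle 3 was the highest array and Vehicle 4 the lowest, and without Vehicle 3 the estimate was 0.13. Both other Rfc1 probe sets had estimates above 0, at 0.35 and 0.33, so the sign was that of 1 probe set and 1 array. The Rfc1 window, printed because its estimate ran against most members, held none of the motifs.
Rfc1 promoter, chr5:65335590-65335889, minus strand: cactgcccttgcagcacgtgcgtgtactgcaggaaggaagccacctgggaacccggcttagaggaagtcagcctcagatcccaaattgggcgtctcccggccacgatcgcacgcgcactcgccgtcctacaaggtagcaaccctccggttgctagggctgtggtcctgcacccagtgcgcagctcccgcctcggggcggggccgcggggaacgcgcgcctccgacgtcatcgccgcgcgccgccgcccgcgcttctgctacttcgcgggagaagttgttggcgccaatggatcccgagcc

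RPA, the complex that protects single-stranded DNA, had no called subunit. Rpa2 signals were 440.1, 789.6, 717.8 and 604.1 on Vehicle 1 to 4 and 1208.7, 1116.1, 1185.5 and 1083.1 on BMP7 1 to 4. The groups were apart and the BMP7 arrays close together, at a log2 fold change of 0.86 ± 0.22 (SE, adjusted p = 0.0583). Rpa3 was also without overlap, from 1548.3 to 2328.6 in the vehicle group and from 2610.7 to 3449.5 in the BMP7 group, at 0.65 ± 0.20 (SE, adjusted p = 0.0932). Rpa1, the large subunit, had 0.19 ± 0.17 (SE, adjusted p = 0.539) with overlap. The second tested Rpa1 probe set had 0.75 ± 0.20 (SE, adjusted p = 0.0670), with every BMP7 array (3956.7 to 4702.6) above every vehicle array (1915.8 to 3299.6), and the second Rpa2 probe set had 1.49 (adjusted p = 0.0708). The estimate for Rpa1 thus differed between its probe sets, and neither passed the threshold.

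Fen1, the flap nuclease, and Lig1, the ligase, finish Okazaki fragments. Lig1 had a log2 fold change of 0.74 ± 0.28 (SE, adjusted p = 0.157), with Vehicle 3 and Vehicle 4 overlapping BMP7 1. Fen1 gave different answers by probe set. The probe set with the higher mean signal, of a design that can share probes with other transcripts, had 0.33 ± 0.20 (SE, adjusted p = 0.361). The other had 1.19 ± 0.20 (SE, adjusted p = 0.0110), with a mean signal of 982 ± 198 in the vehicle group and 2237 ± 226 in the BMP7 group (SD, n = 4 each) and no overlap. Fen1 is not counted among the called members, since 1 probe set per gene was used.

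Among the regulators of S phase entry, Ccne2 (cyclin E2, which activates Cdk2 at the G1/S border) had the largest estimate, 1.12 ± 0.28 (SE, adjusted p = 0.0549). Its signals were 427.3, 641.8, 322.1 and 633.5 on Vehicle 1 to 4 and 891.9, 852.3, 1292.7 and 1363.3 on BMP7 1 to 4, without overlap. Ccne1 and Cdk2 had estimates of 0.41 and 0.40 with adjusted p of 0.330 and 0.225 and overlapping groups. E2f1, the transcription factor that drives many of these genes, had an estimate of -0.10 ± 0.35 (SE, adjusted p = 0.897). Its signals were 776.3, 709.0, 2489.8 and 985.1 on Vehicle 1 to 4 and 872.7, 1076.6, 1116.0 and 988.4 on BMP7 1 to 4. Vehicle 3 alone was high, and without it the estimate was 0.30 (adjusted p = 0.367). The second E2f1 probe set had -0.14 (adjusted p = 0.738). The E2f1 window, printed for the same reason as that of Rfc1, held none of the motifs. This says only that these letters are not in the printed bases. Those bases hold a stretch that can be read as coding sequence, and the listed start site may lie inside the gene. The absence of a match therefore does not describe the E2f1 promoter at any other start site. Sequence outside them was not searched, and whether the listed start site is used in these cells was not tested.
E2f1 promoter, chr2:154569377-154569676, minus strand: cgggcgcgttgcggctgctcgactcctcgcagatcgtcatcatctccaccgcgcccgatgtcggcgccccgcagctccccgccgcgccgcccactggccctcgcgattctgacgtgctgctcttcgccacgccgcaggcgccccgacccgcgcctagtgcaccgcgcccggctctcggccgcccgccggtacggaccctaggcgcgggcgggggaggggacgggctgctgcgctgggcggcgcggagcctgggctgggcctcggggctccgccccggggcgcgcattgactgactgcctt

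Chaf1b, a subunit of the chromatin assembly factor that deposits histones behind the fork, had a log2 fold change of 0.81 ± 0.31 (SE, adjusted p = 0.160), without overlap. Uhrf1, which brings the maintenance DNA methyltransferase to newly copied DNA, had 1.61 ± 0.44 (SE, adjusted p = 0.0728). Its signals were 219.4, 214.5, 199.1 and 940.3 on Vehicle 1 to 4 and 720.2, 993.9, 1072.6 and 1188.0 on BMP7 1 to 4. The other vehicle arrays were close together and Vehicle 4 lay inside the BMP7 range. Without Vehicle 4 the estimate was 2.13 and the adjusted p 0.00405. With any other single array left out Uhrf1 was not called, at an adjusted p of up to 0.202. Uhrf1, too, was tested only because of its BMP7 arrays.

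Other genes of the cell cycle were described in lists put together by function, and 3 of these lists held called genes. Beside them, 1.59% of all tested genes were called higher and 1.77% lower, with a median of 0.00. At an unadjusted p under 0.05 in the same fit, 908 of the 8371 genes were higher and 865 lower. Of 48 tested mitosis genes 8 rose and 0 fell (median 0.84 on the log2 scale), and the largest rises were those of Ccnb1 (cyclin B1, 1.22, adjusted p = 0.0480) and Smc2 (a condensin subunit, 1.13, adjusted p = 0.0375). Their array means were 10.34, 10.65, 10.31 and 11.09 on Vehicle 1 to 4 and 11.23 to 11.56 on the BMP7 arrays, the same order of groups as in the replication members, with Vehicle 4 again the highest vehicle array. Of 21 other replication factors 1 rose, Topbp1 (which helps to fire origins, 1.17, adjusted p = 0.0480), with a median of 0.44. Of 15 genes for copying chromatin at the fork 1 rose, the histone chaperone Asf1b (1.31, adjusted p = 0.0492), with a median of 0.50. The other genes of nucleotide supply had 0 calls among 27 (10 higher and 1 lower at an unadjusted p under 0.05, median 0.28), beside 3 of 4 for the members of that role. The E2F family and S phase cyclins had 0 calls among 13 (5 higher and 0 lower unadjusted, median 0.44), and the G1 cyclins and CDK inhibitors 0 among 7 (2 higher and 0 lower unadjusted, median 0.13). Smc2, Topbp1 and Asf1b lost their calls when Vehicle 1, Vehicle 2 or a single BMP7 array was left out, and Ccnb1 also when Vehicle 3 was, with an adjusted p of up to 0.155. The differences between lists were not tested.

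**Figure D4:**
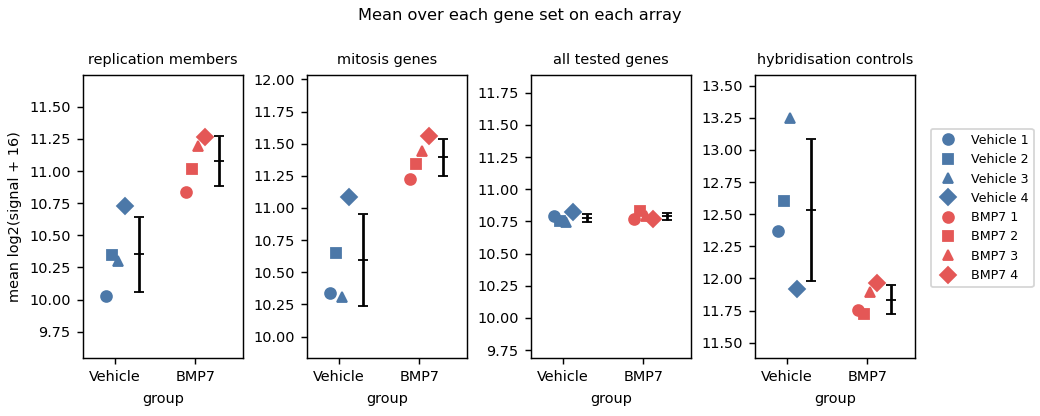
Mean log2(signal + 16) over the 47 replication members, the 48 mitosis genes and all tested genes, and the mean log2 signal of the hybridisation controls, on each array (points, shapes by array number), with group mean and SD (black, n = 4). The members' means run from 10.03 to 10.73 in the vehicle group and from 10.84 to 11.27 in the BMP7 group, all tested genes stay between 10.75 and 10.83, and the hybridisation controls spread from 11.92 to 13.25 in the vehicle group. The members' means include the 4 genes that passed the filter only through the BMP7 arrays.

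The mesenchymal markers differed the other way from the replication members, with 2 of 11 called lower and 1 higher. Of all tested genes, 1.77% were called lower and 1.59% higher. Their mean was 13.90 to 14.31 on the vehicle arrays and 13.63 to 13.74 on the BMP7 arrays, 10 of 11 estimates were under 0 and the median log2 fold change was -0.47. Pdgfra, a growth factor receptor of mesenchymal cells, fell by 1.28 on the log2 scale (adjusted p = 0.0176) and Col3a1, a fibrillar collagen, fell by 0.85 (adjusted p = 0.0268), while Ly6a, a surface antigen of mesenchymal cells, rose by 0.89 (adjusted p = 0.0352). Pdgfra lost its call without Vehicle 1, BMP7 2, BMP7 3 or BMP7 4, and Col3a1 and Ly6a when Vehicle 1, Vehicle 2 or a single BMP7 array was left out, with an adjusted p of up to 0.127. Their part in the members' result was not tested.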

How the data were processed

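Total RNA from 8 samples, 4 per group, was measured on Affymetrix mouse 430A arrays. The deposited values are linear intensities that the authors computed with the MAS5 algorithm, of unstated version, according to the submitters' processing notes. The p-values in the authors' deposited table equalled a two-sided unequal-variance test of the linear signals to within 5e-10. A second deposited set of 8 columns named only by array codes was not used. Signals were kept as scaled and converted to log2(signal + 16), and 64 Affymetrix control probe sets were left out. Probe sets with a mean log2 value under the 40th percentile (a signal of about 325) were not tested. The groups were compared with limma 3.58.1 in R 4.3.3 (lmFit, eBayes with intensity trend, two-sided, no covariate), with Benjamini-Hochberg adjustment over 13576 probe sets and a threshold of 0.05. Each gene was represented by the probe set with the highest mean signal among those assigned to it alone. The script was tested on simulated data. All members are named, and in each other list up to 2 rises and 2 falls, by size of the log2 fold change. The members and lists were chosen with earlier results of these data known, so list counts and medians are descriptions without a test. Alternatives covered the pseudocount, filter, scaling, trend, array weights, 2 covariates, a replicate block, the unequal-variance test, probe set choice and each array left out. Promoter windows came from a RefSeq table of GRCm38.p6. No protein sequences were used.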

Additional observations from a re-analysis of the deposited data

Results flagged for a closer look

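In 2 of 120 sets of 4 values screened, 1 array lay far from the other 3 of its group, where chance gives about 1 set in 20. Mcm5 had a signal of 1845.2 on Vehicle 4, against 801.1 to 878.0 on the other vehicle arrays. Uhrf1 had a signal of 940.3 on Vehicle 4, against 199.1 to 219.4 on the other vehicle arrays.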

How the results depend on the processing

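The direction of 41 of the 47 tested members was the same under all 22 alternatives that tested them. These 41 include the 4 members (Orc1l, Cdc6, Pole and Uhrf1) that passed the filter only through the BMP7 arrays. Their direction was fixed by the filter, so its constancy says nothing on stability. The difference in the members' array mean lay between 0.62 and 0.85 wherever it could be computed, and the members' median log2 fold change lay between 0.55 and 0.79. Both values were computed with those 4 genes among the members in the fit reported. The number of calls was less stable. Of the 7 called members, all 7 lost the call without at least 1 array, and 18 of the members that were not called passed under none of the alternatives. Members called higher, 7 in the fit reported, were 28 with array weights, 0 with the hybridisation control covariate, 0 by the unequal-variance test on linear signals (28 at an unadjusted p under 0.05), 12 with all probe sets of a gene averaged and 0 to 15 on leaving out 1 array. Members called lower were 0 throughout.

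All genes called higher and lower, 133 and 148, were 571 and 538 with array weights, 17 and 18 with the hybridisation control covariate, 1 and 2 by the unequal-variance test, and 28 to 326 and 50 to 257 on leaving out 1 array; with all probe sets of a gene averaged 202 were higher. Median centring moved the median of all genes to -0.10 and the share of higher among called genes from 47.3% to 34.2%, with 6 members still called higher. Mitosis genes called higher, 8 in the fit reported, were 3 with no filter, 5 without the trend, 36 with array weights, 0 with the hybridisation control covariate or the unequal-variance test, 15 with the mean of probe sets and 0 to 28 on leaving out 1 array.

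Other replication factors called higher (1) were 2 at pseudocount 64, the 60th percentile filter or the 3' to 5' covariate, 6 with array weights, 0 with no filter, no trend, the hybridisation control covariate or the unequal-variance test, and 0 to 3 on leaving out 1 array. Chromatin copying genes called higher (1) were 6 with array weights, 0 at pseudocount 1, with no filter, median centring, no trend, either covariate or the unequal-variance test, and 0 to 4 on leaving out 1 array. Other nucleotide supply genes called higher (0) were 6 with array weights, 1 with the 3' to 5' covariate or without shared-probe designs, 2 with the mean of probe sets and 0 to 2 on leaving out 1 array. E2F family genes called higher (0) were 1 without the trend, 2 with array weights and 0 to 2 on leaving out 1 array, and those called lower (0) were 1 with array weights or the 3' to 5' covariate and 0 to 1 on leaving out 1 array. G1 cyclins and CDK inhibitors called higher (0) were 1 with the 60th percentile filter, array weights or the mean of probe sets and 0 to 1 on leaving out 1 array. Mesenchymal genes called higher (1) were 0 with no filter, median centring, no trend, the hybridisation control covariate or the unequal-variance test and 0 to 1 on leaving out 1 array. Those called lower (2) were 1 with no filter or no trend, 6 with array weights, 0 with the hybridisation control covariate or the unequal-variance test and 0 to 4 on leaving out 1 array. The cause of these shifts was not tested.

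Direction reversed for 6 members, none of them called. E2f1 was 0.25 with array weights, 0.62 with the hybridisation control covariate, 0.35 with the 3' to 5' covariate and 0.30 without Vehicle 3, and ran down to -0.29 on leaving out 1 array. Rfc1 was 0.68, 0.17 and 0.13 under the last 3 of these settings and 0.16 with all probe sets averaged, and -0.47 without Vehicle 4. Orc3l was -0.15, -0.10 and -0.079 with the hybridisation control covariate, with the 3' to 5' covariate and without Vehicle 3, and Orc4l was -0.36, -0.12 and -0.088 (up to 0.33 without Vehicle 2), with -0.041 for the average of probe sets and -0.28 without shared-probe designs. With the hybridisation control covariate Pola1 was -0.042 and Prim1 -5e-04.

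The replicate numbers were not taken to pair the samples, since 1 of the 4 pairs fell below the limit of 0.1 set for pairing and no label says what the numbers share: the correlations of same-numbered samples' deviations were 0.3831, 0.0365, 0.1522 and 0.1865, and 7 of 8 samples correlated best with their own number, a hint of pairing from the data and not from the design. With the number as a replicate block, 13 members, 220 of all genes, 19 mitosis genes, 3 chromatin copying genes and 2 other replication factors were called higher. Probe sets near background, such as those of Tyms, give no usable comparison at these signals.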
